A study of Cladosporium europaeum with 50 samples.

Results

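Filamentous fungi carry families of genes that act in the recognition of other individuals and in cell death, and 9 such genes were among those the study listed as changed by polychlorinated biphenyls (PCB) in the mycelium of Cladosporium europaeum strain F32. They were chosen by their annotation, which names heterokaryon incompatibility, a HeLo domain, a NACHT domain or a HET protein, from 705 annotated genes of 920 listed genes in all. By domain, 5 were HET domain proteins, 2 were HeLo domain proteins and 2 were NACHT domain proteins. A gene whose annotation names both a NACHT domain and a HET protein was counted with the NACHT domain proteins. Since only genes listed as changed could be chosen, the values below describe these genes and test nothing about them. The changes were mixed in direction. After 96 h with PCB180, 6 of the genes were higher and 2 lower than in the control. After 96 h with PCB153, 1 was higher and 1 lower. Of all genes listed for PCB180 at 96 h, 63.2% were higher, and of those listed for PCB153, 75.9%. No trait of the 9 genes is read from these splits.

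Heterokaryon incompatibility is the death of the fused cell that follows when hyphae of genetically different individuals of a fungus join. The HET domain is the part of many incompatibility proteins that brings about this death. The HeLo domain is the N-terminal domain of HET-S of the fungus Podospora anserina, which attacks the membrane once the prion-like end of the protein has folded. NACHT domains bind nucleotides and let many receptors of the NLR type, which in animals serve in innate immunity, assemble on sensing a ligand. In Podospora anserina the HET-E protein joins a HET domain, a NACHT domain and a run of WD40 repeats, and an NLR gene lies beside het-S and signals to its product by a short amyloid motif.

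The strain, isolated from soil with a history of PCB pollution, was grown in liquid mineral medium with 5 g/L of glucose and either 0 or 6 mg/L of PCB52, PCB101, PCB153 or PCB180. Polyadenylated RNA of mycelium was sequenced after 24 h and after 96 h in 50 samples, which by the labels form 10 groups of 5 replicates. How many libraries entered each deposited comparison cannot be told from the tables. All groups are of this single strain, and the labels do not state whether each replicate was a culture of its own, so the p-values cover the spread among these samples alone, which may be technical. The deposited tables give the authors' comparisons of each congener with the control sampled at the same time and no values per sample, so levels in single samples and depth per library are not reported here. "Rose" and "fell" refer to genes these tables list, whose adjusted p was under 0.05 and whose log2 fold change was 1 or more in absolute size. In RNA of whole mycelium, fewer cells of a kind and less RNA per cell cannot be told apart.

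Under PCB180 at 96 h, 7.26% of the 11313 genes tested were listed, 4.59% as higher and 2.67% as lower. Under PCB153 at 96 h, 2.4% of the 10874 genes tested were listed, 1.82% as higher and 0.579% as lower. Since listing was itself the condition for choosing the 9 genes, nothing is read from their number against these shares. None of the 9 was among the genes listed under PCB101 (0.0796% of genes tested) or PCB52 (0.00884%) at 96 h. At 24 h the lists for PCB52, PCB153 and PCB180 held 9 genes, 0.00884%, 0.053% and 0.0177% of the genes tested, and none of the incompatibility and NACHT genes was among them. The rows used here hold none for PCB101 at 24 h. The 6 genes that rose under PCB180 had a median log2 fold change of 1.60, beside 1.59 over all 519 genes that rose. The 2 that fell had a median of -1.62, beside -1.27 over all 302 genes that fell.

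**Figure D1:**
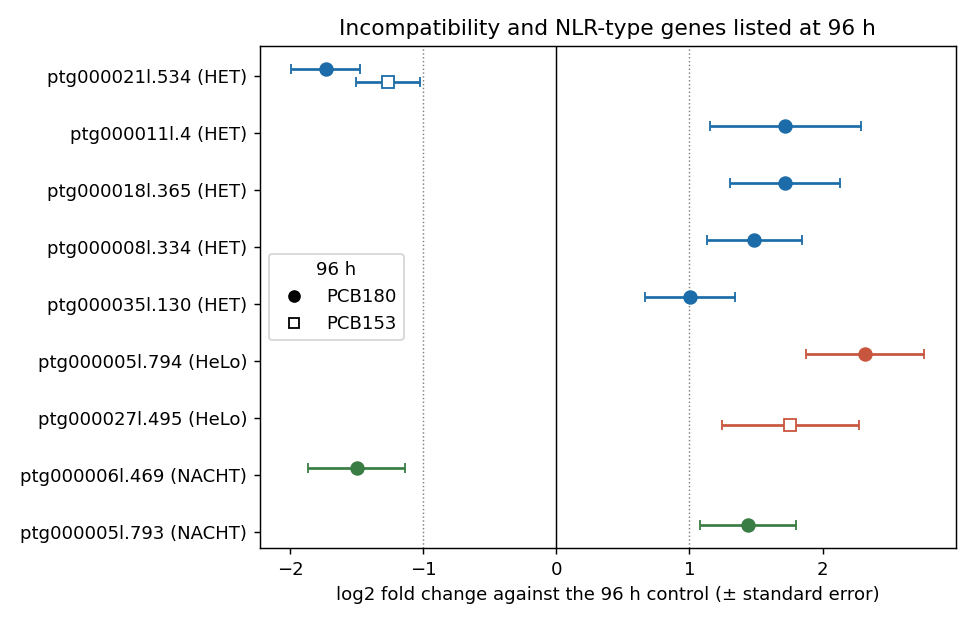
Log2 fold change against the 96 h control on the x axis for each of the 9 genes, with bars of 1 standard error, filled circles for PCB180 and open squares for PCB153; dotted lines mark the log2 fold changes of -1 and 1. Of the 9 genes, ptg000021l.534 is the one with a value for both congeners, -1.73 and -1.26, and the values for PCB180 run up to 2.32 at ptg000005l.794.

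The HET domain protein ptg000021l.534, annotated as a heterokaryon incompatibility domain protein, fell under both congeners. Under PCB180 the authors' deposited table gives a log2 fold change of -1.73 ± 0.26 (standard error) with an adjusted p of 2.63e-08, a level 3.32-fold lower than in the control. Under PCB153 it was -1.26 ± 0.24 (adjusted p = 0.000108) in the authors' deposited table, 2.40-fold lower. By unadjusted p it stood 9th among the 821 genes listed for PCB180 and 12th among the 261 listed for PCB153, the highest place of the 9 genes in each comparison. By size of the fall it stood 35th of 302 and 24th of 63. Its standard errors were below the medians of 0.41 and 0.39 over the genes listed for these congeners.

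PCB153 is a hexachlorobiphenyl, and PCB180, a heptachlorobiphenyl, carries an additional chlorine. At the same dose and hour, the log2 fold change of ptg000021l.534 under PCB180 minus that under PCB153 was -0.47, with a 95% interval from -0.96 to 0.02 when a correlation of 0.5 is taken between comparisons that share a control. This is the 1 pair of values that could be set side by side among the 9 genes. Over all genes, 171 were listed for both congeners, of 821 listed for PCB180 and 261 for PCB153. Most genes listed for PCB180 were thus not listed for PCB153, and this is not particular to the 9. The interval for ptg000021l.534 includes 0 and also falls of almost 1 log2 unit. The correlation could not be estimated from the tables. With a correlation of 0 the interval was -1.16 to 0.22, and with 0.25 it was -1.07 to 0.13, both including 0. With 0.75 the interval was -0.82 to -0.12 and excluded 0. The direct comparison of PCB180 with PCB153 in the deposited tables holds 1 gene, and it is none of the 9. Both comparisons use the 96 h control, so the falls under the 2 congeners are not independent of each other.

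The other HET domain proteins rose under PCB180, by sizes that went from the edge of the list to the middle of it. For ptg000018l.365 the log2 fold change was 1.72 ± 0.41 (adjusted p = 0.0018) in the authors' deposited table. For ptg000008l.334 it was 1.49 ± 0.36 (adjusted p = 0.00173) in the authors' deposited table. These values correspond to levels 3.29-fold and 2.80-fold above the control. The gene ptg000011l.4 also had a log2 fold change of 1.72, but with a standard error of 0.57 and with adjusted p = 0.031 in the authors' deposited table. Its mean normalized count was 11.97, near the bottom of the listed genes, where it ranked 906 of 920. The most abundant of the 9 genes was ptg000035l.130, with a mean normalized count of 829. It rose by 1.003 ± 0.34 as a log2 value, with adjusted p = 0.0354, in the authors' deposited table, the second smallest of the 519 rises, at rank 518. It therefore lies just inside the fold threshold, and genes just outside it were not among the rows used here.

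The HeLo domain proteins both rose, each under a different congener. For ptg000005l.794, annotated as a prion-inhibition and propagation HeLo domain protein, the log2 fold change under PCB180 was 2.32 ± 0.44 (adjusted p = 3.69e-05) in the authors' deposited table. This is 4.99-fold above the control, with a 95% interval of the log2 fold change from 1.45 to 3.19, the largest change of the 9 genes and the 60th of the 519 rises. The gene ptg000027l.495, with the same annotation, rose under PCB153 by 1.76 ± 0.51 (adjusted p = 0.0273) in the authors' deposited table. Its place by unadjusted p was 182nd of the 261 genes listed for PCB153, and its standard error was above their median of 0.39. It was not listed for PCB180, and the tables hold no value of it there.

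The NACHT domain proteins moved in opposite directions under PCB180. A level 2.83-fold lower than in the control was found for ptg000006l.469, whose log2 fold change was -1.50 ± 0.36 (adjusted p = 0.00219) in the authors' deposited table. This gene carries 3 distinct annotations, a NACHT domain, a nephrocystin 3-like N-terminal domain and putative vegetative incompatibility protein HET-E-1, the name of the Podospora anserina protein described above. A level 2.72-fold higher was found for ptg000005l.793, with a log2 fold change of 1.44 ± 0.36 (adjusted p = 0.00325) in the authors' deposited table. A further gene with the nephrocystin 3-like annotation but none of the words that chose the 9, ptg000011l.209, was noticed after the values were seen. It rose under PCB180 by 1.03 ± 0.22 (adjusted p = 0.000366) in the authors' deposited table.

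The 9 genes were on the whole of modest abundance. Their mean normalized counts, a single value per gene for all comparisons, ran from 11.97 to 829 with a median of 110, beside a median of 302 over all 920 listed genes. Of the 9 genes, 7 were below that median and 3 below the lower quartile of 77.5, namely ptg000011l.4, ptg000008l.334 with 47.5 and ptg000005l.793 with 71.5, all of which rose under PCB180. The counts of the genes that fell were 110 for ptg000021l.534 and 243 for ptg000006l.469. HET and NACHT genes belong to families with many related copies in filamentous fungi, and how reads shared between copies were counted is not given in the sources used here, so values of single copies are uncertain to that extent.

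**Figure D2:**
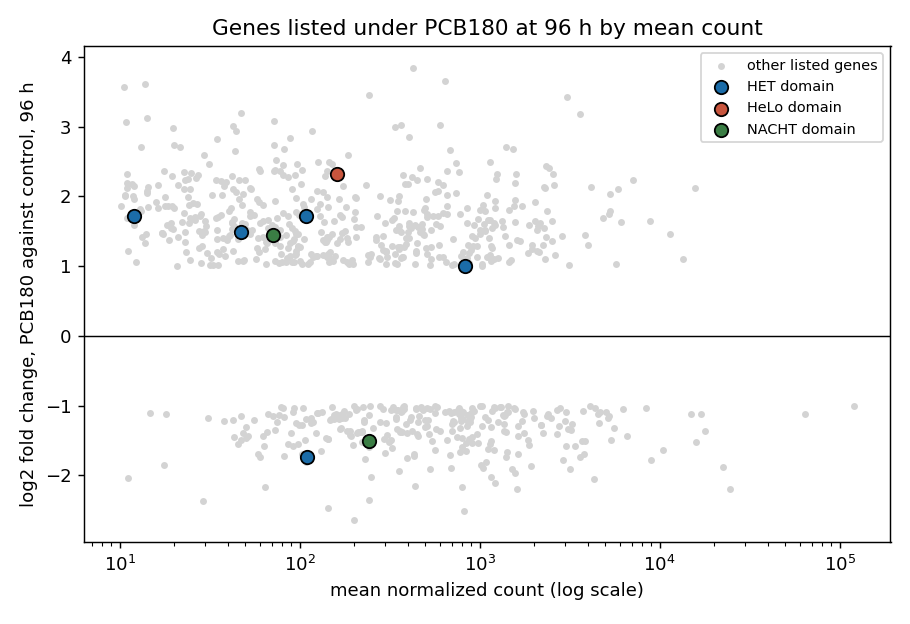
Mean normalized count (log-scaled x axis) against log2 fold change for the 821 genes listed for PCB180 at 96 h, with the 8 genes of the group in colour by domain. The coloured points lie between counts of 11.97 and 829, and the HeLo gene ptg000005l.794 is the highest of them at 2.32.

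Gene identifiers join a contig and a gene number, which gives an order of genes but no distance. The NACHT gene ptg000005l.793 and the HeLo gene ptg000005l.794 have consecutive numbers, and both rose under PCB180, with log2 values of 1.44 and 2.32 in the authors' deposited table. Also next to each other were ptg000006l.469 and a PH domain protein (ptg000006l.468), a domain that binds phosphoinositides in many proteins, which fell under PCB180 by 1.13 ± 0.34 (adjusted p = 0.0166) in the authors' deposited table. On the other side of ptg000006l.469, at a distance of 2 gene numbers, a GNAT family N-acetyltransferase (ptg000006l.471) rose by 1.49 ± 0.43 under PCB180 in the authors' deposited table. The gene after ptg000027l.495, ptg000027l.496, has no annotation and rose under PCB153 by 1.85 ± 0.58 (adjusted p = 0.0427) in the authors' deposited table, as ptg000027l.495 did. No listed gene stood within 2 numbers of the 5 HET domain genes.

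Listed genes with consecutive numbers were frequent in general. A listed gene at the next number on either side was found for 4 of the 9 genes (44.4%), of which 2 are each other's neighbours, and for 200 of all 920 listed genes (21.7%). Of the 74 consecutive pairs listed for PCB180 at 96 h, 39 rose together, 17 fell together and 18 split, so that 75.7% shared a direction, and for PCB153 the share was 87.5% of 32 pairs. The 3 consecutive pairs described here all shared a direction. Within 2 gene numbers, 44.4% of the 9 genes and 33.5% of all listed genes had a listed neighbour. Within 10 these shares were 100% and 83.2%. Within 5 gene numbers 8 of the 9 genes had a listed neighbour (88.9%), beside 59.6% of all listed genes. For ptg000011l.4 that neighbour was ptg000011l.9, listed for PCB180 at 24 h and not at 96 h.

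**Figure D3:**
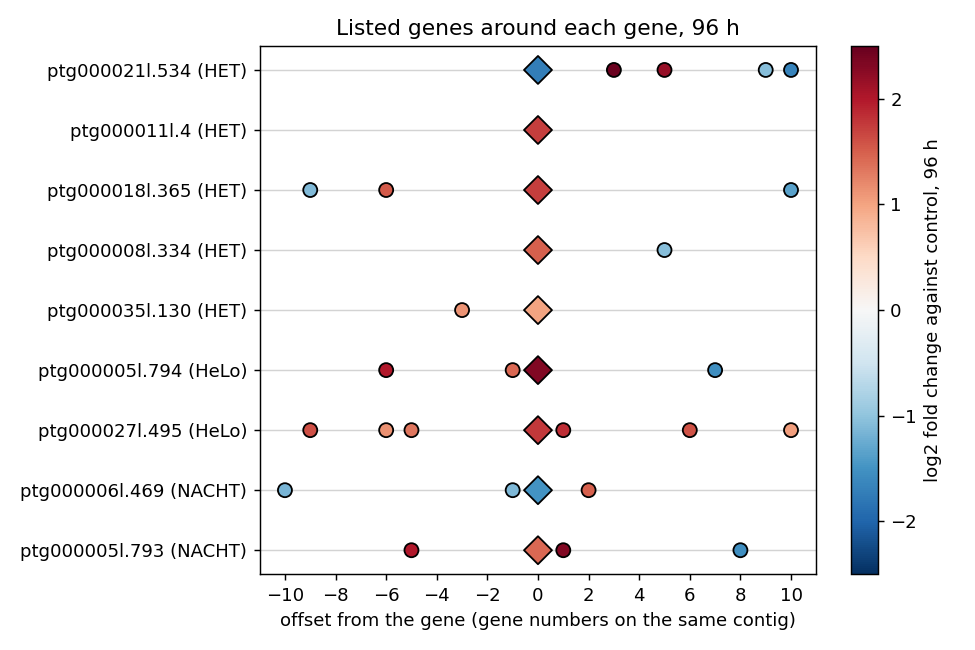
Genes listed at 96 h (circles) within 10 gene numbers of each of the 9 genes (diamonds at offset 0) on the same contig, coloured by log2 fold change against the 96 h control, with the PCB180 value shown where a gene was listed for both congeners. The HeLo gene ptg000005l.794 and the NACHT gene ptg000005l.793 sit at an offset of 1 from each other, both in red for a rise.

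A gene missing from a list is not thereby unchanged, so the change that would have placed it there was worked out from the standard errors. Over the 171 genes listed for both congeners, the standard error under PCB153 was 0.949 times that under PCB180 (5th to 95th percentile 0.938 to 0.957), and the largest unadjusted p on the PCB153 list was 0.00177. With standard errors scaled by this ratio, the HeLo gene ptg000005l.794 would have been listed for PCB153 at an absolute log2 fold change of 1.31, beside its 2.32 under PCB180. For the NACHT genes ptg000005l.793 and ptg000006l.469 the needed change was 1.08 for each, beside log2 fold changes of 1.44 and -1.50 under PCB180. The HET genes ptg000018l.365 and ptg000008l.334 needed 1.22 and 1.05, beside 1.72 and 1.49 under PCB180.

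In this way all 7 genes listed for PCB180 and not for PCB153 had a PCB180 change at or above the size needed for PCB153. For ptg000011l.4 and ptg000035l.130 the margin was only 0.04 and 0.002 log2 units, and with the standard errors left as they were for PCB180 neither reached it, which leaves 5 of 7. The low count of ptg000011l.4 was still above the lowest on the PCB153 list, 10.6. The 7 genes were picked by a large value under PCB180 itself, and a difference between the congeners was not tested for them. The largest listed p corresponds to a normal score of 2.80 for PCB180 and 3.13 for PCB153. With the scaling the 2 limits are close, so listing for PCB180 nearly settled this outcome beforehand. The count of 7 therefore says nothing about how these genes changed under PCB153. Conversely, ptg000027l.495 would have needed 1.52 to be listed for PCB180, beside its 1.76 under PCB153. Its listing for PCB153 likewise nearly settled this beforehand. For PCB101, the list reached an unadjusted p of at most 3.77e-05. The needed sizes for the 8 genes listed for PCB180 lay between 1.01 and 2.21. Of the 8, 6 had a PCB180 change of the needed size, or 4 with the standard errors left unscaled. These 8 were likewise picked by their PCB180 values, so this count says nothing about how they changed under PCB101.

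**Figure D4:**
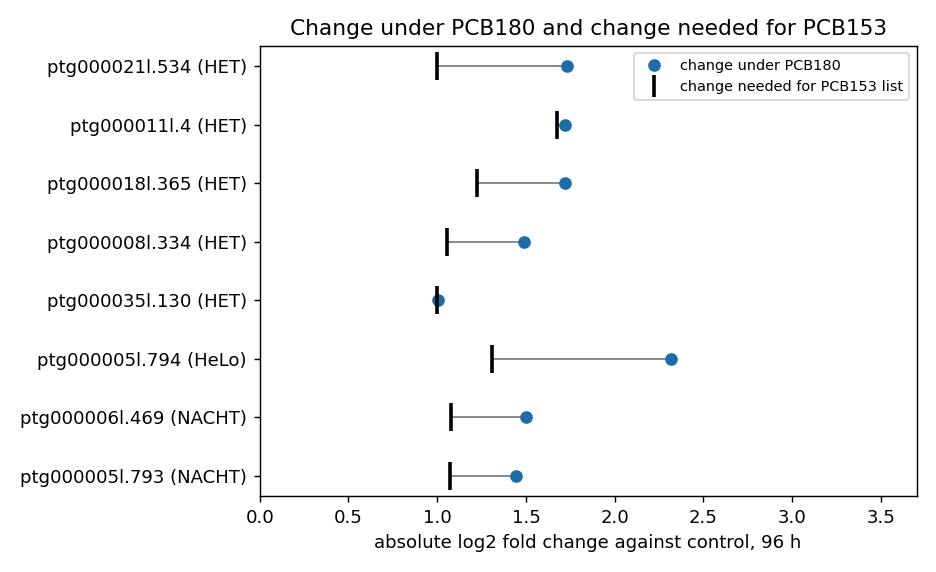
Absolute log2 fold change under PCB180 at 96 h (circles) and the absolute log2 fold change at which each gene would have been listed for PCB153 (vertical marks, standard errors scaled by 0.949). The distance is widest for ptg000005l.794, at 2.32 and 1.31, and close to nothing for ptg000035l.130.

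Genes with domains or roles related to incompatibility and NLR proteins were counted as companion lists, with the 9 genes left out. Proteins with the repeats found at the end of many NLR proteins (ankyrin, TPR and WD40) split 6 to 1 in favour of rises under PCB180, where 63.2% of all listed genes rose. The 6 rises had a median log2 fold change of 1.36, beside 1.59 over all rises listed for PCB180. Under PCB153, where 75.9% of all listed genes rose, 2 of the list rose and 0 fell. An ankyrin repeat protein (ptg000018l.408) rose by 1.72 ± 0.40, a WD40 repeat-like protein (ptg000015l.332) by 1.65 ± 0.31, a protein named for the WD40 domain of anaphase-promoting complex subunit 4 (ptg000012l.197) by 1.38 ± 0.38 and a protein annotated only as ankyrin (ptg000009l.507) by 1.35 ± 0.33 under PCB180 in the authors' deposited table. The protein of the list that fell has a MalT-like TPR region (ptg000017l.54) and stood at -1.04 ± 0.27 in the authors' deposited table. Ankyrin and WD40 repeats occur in many proteins unrelated to incompatibility.

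The list of effector and nucleotide-binding domains held 2 genes, both matched by the words P-loop nucleoside triphosphate hydrolase. Of these, ptg000015l.18 rose under PCB153 by 2.69 ± 0.55 in the authors' deposited table. The other, ptg000027l.598, which is also annotated as an acyltransferase, rose by 1.48 ± 0.45 under PCB153 and by 1.47 ± 0.47 under PCB180 in the authors' deposited table. The list of cell death and autophagy held 2 genes, and both fell under PCB180, where 36.8% of all listed genes fell. Both were matched by the word autophagy alone. They were a sterol 3-beta-glucosyltransferase also named autophagy-related protein 26 (ptg000005l.85), at -1.94 ± 0.42, and sorting nexin-4, also named autophagy-related protein 24 (ptg000009l.729), at -1.10 ± 0.23 in the authors' deposited table. Both names come from autophagy in yeasts, where sorting nexin-4 also recycles membrane proteins from endosomes. No listed gene was annotated as a metacaspase or by another word of programmed cell death that was searched. The list of cell fusion and septal pore genes matched 0 listed genes. Only 705 of the 920 listed genes carry an annotation, and genes that were not listed could not be searched. A response of such genes is therefore not excluded.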

How the data were processed

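Per the labels' protocols, RNA was isolated by TRIzol and sequenced from polyA libraries. No aligner, counter, genome build, annotation source or test program is named in the labels or headers. For every listed gene and comparison the authors deposited a log2 fold change, the standard error belonging to it (log2 scale), a test score, unadjusted and adjusted p-values and, per the file headers, the gene's mean normalized count, a signal at or above 0. In all 1102 rows the score is the quotient of fold change and standard error. A copy deposited with annotations has 887 rows and 2-decimal rounding, and its log2 fold changes were within 0.005.

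The 9 genes, the 5 companion lists and the tests were chosen with earlier results of these data known. All 9 are named, with listed genes within 2 gene numbers and up to 4 genes per companion list by size of change at 96 h. The genes ptg000017l.54, ptg000011l.209, ptg000011l.69, ptg000027l.84 and ptg000011l.9 are outside this rule and were chosen after their values were seen. Values are the authors' own and no new test was made. The number of genes tested was found as the smallest integer whose product with p over adjusted p is a whole rank for the largest number of rows (tolerance 1e-06), and this step returned the right number in 3 of 3 simulated sets. The needed change is the larger of 1 and the standard error times the normal score of the largest listed p. Intervals are 95% normal intervals. Python 3.11.15, pandas 2.3.3, numpy 2.4.6 and scipy 1.17.1 were used. Alternatives were stricter thresholds, a filter on mean count, narrower membership, other correlations and other windows; scaled and unscaled standard errors and the window of 1 gene number were added after the data were seen.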

Additional observations from a re-analysis of the deposited data

How the results depend on the processing

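No value per sample was used here, so leaving out a replicate was not run, and the depth behind each value is unknown. No paired analysis was possible because the tables hold comparisons and not samples. With an adjusted p under 0.01, 0 genes that rose under PCB153 were left, and with 0.001 these were 0, while under PCB180 1 that rose and 1 that fell remained past 0.001. With log2 fold changes of 1.5 or more in absolute size, 3 that rose and 1 that fell were left for PCB180 and 0 that fell for PCB153; at 2 or more, 1 rose and 0 fell for PCB180, and 0 rose and 0 fell for PCB153. Leaving out the lowest 25% of listed genes by mean normalized count left 3 that rose under PCB180. Membership by heterokaryon incompatibility alone left 3 that rose and 1 that fell under PCB180, and 0 that rose under PCB153. By the first annotation entry alone, the effector and nucleotide-binding list had 1 rise for PCB153 and 0 for PCB180, and the cell death and autophagy list 1 fall. At an adjusted p under 0.01, that effector list had 1 and 0, and reverse transcriptases and transposases had 0 rises for PCB153 and 1 rise and 0 falls for PCB180. A window of 2 gene numbers, or of 1, gave 4 genes with a listed neighbour, in place of 8 with 5. These smaller counts follow from fewer genes passing, being matched or lying in the window. The 10 log2 fold changes kept their direction and differed by rounding alone between the 2 deposited tables.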

Other observations

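Genes of mobile elements were a further list beside the 9 genes. Of 7 listed reverse transcriptases and transposases, 5 rose and 1 fell under PCB180 at 96 h, and 2 rose under PCB153. Of all listed genes, 63.2% rose under PCB180 and 75.9% under PCB153. The 5 rises under PCB180 had a median log2 fold change of 1.75, beside 1.59 over all rises listed for that congener. A transposase (ptg000012l.7) rose by 2.11 ± 0.60, and Tc1-like transposase DDE domain proteins by 1.80 ± 0.58 (ptg000035l.69) and 1.75 ± 0.48 (ptg000011l.211) under PCB180 in the authors' deposited table. A reverse transcriptase domain protein (ptg000006l.10) rose by 1.47 ± 0.46 under PCB180 and 1.44 ± 0.43 under PCB153 in the authors' deposited table. The gene that fell was also a reverse transcriptase (ptg000011l.69, -1.18 ± 0.36, in the authors' deposited table). At 24 h, a reverse transcriptase (ptg000027l.84) was listed for PCB153, at 2.08 ± 0.47 in the authors' deposited table. Elements of this kind have many near-identical copies, so which copy the reads came from is uncertain.

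The standard errors under PCB101 and PCB153 at 96 h stood in nearly the same ratio to those under PCB180, 0.949 in the median for each, over 7 and 171 genes listed for both congeners. The 5th to 95th percentile was 0.947 to 0.950 for PCB101. Whether the PCB180 comparison used all 5 replicates that the labels give for that group cannot be told from the tables.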
